A study of Mus musculus with 6 samples.

Results

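The 10 genes described here encode enzymes that modify and cross-link collagen: the lysyl oxidases Lox, Loxl1, Loxl2, Loxl3 and Loxl4, the lysyl hydroxylases Plod1, Plod2 and Plod3, and the catalytic prolyl 4-hydroxylase alpha subunits P4ha1 and P4ha2. They were taken by symbol from the deposited comparison table and joined by identifier to the raw counts, 10 of 39179 gene identifiers, and all 10 passed the filter on low counts that left 14850 genes to test. RNA-seq was available for 6 mouse mammary tumour grafts. AXL KO grafts (3 libraries) were grown from MMTV-Neu tumour cells that were AXL-/-, and WT grafts (3 libraries) from MMTV-Neu cells that were AXL+/+, all in FVB mice. Axl encodes a receptor tyrosine kinase, and the MMTV promoter drives the Neu (ErbB2) oncogene in mammary epithelium. The Axl genotype and age of the host mice, the number of animals and whether both kinds of cells came from one tumour line are not stated in the sources used here. A graft holds host vessels, fibroblasts and leukocytes beside the tumour cells, and in such bulk RNA fewer cells of a type and less RNA per cell cannot be told apart. Since the labels do not say that replicates came from separate animals, the spread behind each p-value is that of these samples and may be technical.

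Prolyl and lysyl hydroxylases act on collagen chains inside the endoplasmic reticulum and need iron, oxygen and 2-oxoglutarate. Prolyl hydroxylation stabilises the collagen helix, and hydroxylysines carry sugars and form the more stable kinds of cross-link. Lysyl oxidases are copper-dependent and mostly secreted. They oxidise lysines of collagen and elastin to aldehydes, from which the cross-links form. In breast cancer, stromal and tumour cells both make these enzymes, and several of the genes, among them Lox, Plod2, P4ha1 and P4ha2, are known targets of the hypoxia-inducible factor HIF-1.

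The libraries held 26541009 to 32491807 counts in genes. Axl itself did not check the labels, with 1360, 2396 and 1767 counts in AXL KO libraries, against 1906, 1761 and 1507 in WT libraries, so groups are libraries as labelled. Of the tested genes 18.3% were called lower and 19.1% higher in AXL KO (adjusted p under 0.05), and the median log2 fold change over all of them was 0.00. Within each group 1 library stood apart. AXL KO replicate 2 differed from the other AXL KO libraries with a chi-square per gene of 22.8 and 23.2, against 11.8 between those other libraries. WT replicate 1 differed from WT replicates 2 and 3 with 31.6 and 17.8, against 13.3 between those. It thus stood apart less clearly, with WT replicate 3 not far from it. Luminal epithelial markers were present in every library but did not move together. Erbb2, the mouse gene of the receptor that the Neu transgene encodes, made up most of their sum, with 10000, 8080 and 9520 CPM, that is counts relative to the TMM-corrected library size, in AXL KO and 6870, 7950 and 6770 CPM in WT. The other luminal markers, such as Epcam and Krt8, summed to 3970 to 4360 CPM in AXL KO and to 5150 to 5490 CPM in WT, without overlap. That split was chosen after the values were seen. Summed fibroblast markers ranged from 198 to 301 CPM in AXL KO and from 262 to 426 CPM in WT.

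RefSeq promoters (GRCm38.p6) were at hand for 5 of the 10 genes, Loxl4, Plod1, Plod3, P4ha1 and P4ha2. Those of the 3 called genes among them are shown because all 3 were lower in AXL KO and because HIF factors bind a short core, ACGTG or GCGTG. Each line gives the 250 bases before the RefSeq start, 5′ to 3′ on the gene's strand, with every such core on either strand in capitals (CACGT and CACGC are the reverse complements):
P4ha1: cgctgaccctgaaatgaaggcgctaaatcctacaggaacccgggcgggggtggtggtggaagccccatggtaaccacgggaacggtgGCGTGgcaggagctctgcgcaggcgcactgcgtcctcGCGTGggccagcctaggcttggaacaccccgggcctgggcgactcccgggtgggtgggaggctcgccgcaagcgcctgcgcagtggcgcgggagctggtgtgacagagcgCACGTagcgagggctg
P4ha2: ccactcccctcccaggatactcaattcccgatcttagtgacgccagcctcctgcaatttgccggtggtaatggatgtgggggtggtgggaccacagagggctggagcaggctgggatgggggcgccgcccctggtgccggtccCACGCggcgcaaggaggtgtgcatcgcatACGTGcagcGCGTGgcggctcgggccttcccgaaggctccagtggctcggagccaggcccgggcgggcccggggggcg
Plod1: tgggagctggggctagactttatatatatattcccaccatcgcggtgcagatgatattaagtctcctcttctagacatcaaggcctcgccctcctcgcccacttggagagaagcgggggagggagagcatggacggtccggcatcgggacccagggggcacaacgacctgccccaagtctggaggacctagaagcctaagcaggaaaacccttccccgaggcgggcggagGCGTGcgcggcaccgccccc
The P4ha1 stretch is chr10:59323046-59323295 on the plus strand, that of P4ha2 chr11:54100674-54100923 on the plus strand, and that of Plod1 chr4:147936777-147937026 on the minus strand. The RefSeq start of P4ha2 lies downstream of the GENCODE gene start given below, so its stretch lies inside the gene as GENCODE annotates it. P4ha1 held 3 matches, beginning 163, 126 and 16 bases before the start, and P4ha2 held 3, at 107, 78 and 69 bases. Plod1 held 1, at 20 bases. Plod3, which was not called, held 4, in a stretch where 208 of 250 bases overlap an exon of Znhit1. Loxl4, also not called, held 1. All 5 promoters thus held a core, as did 38.6% of 32851 mouse promoters over the same 250 bases, with ACGTG in 16.6% and GCGTG in 28.2%. The 5 promoters had a G and C content of 55.6% to 76.0%, and the share over all promoters was not matched for it. A match of these letters is not a measured site.

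Of the 10 enzyme genes 6 fell in AXL KO grafts and none rose. Loxl3, Loxl1, Plod1, Plod2, P4ha1 and P4ha2 passed the test, that is 6 of 10, against the background of 18.3% of tested genes called lower. The fitted log2 fold change was negative for all 10, with a median of -0.71. In 7 of the 10 every AXL KO library lay below every WT library, which held for 25.2% of tested genes. The authors' deposited table called 5 of the 10 lower, all of the 6 except P4ha2, while 16.7% of its genes with an adjusted p were called lower. Without AXL KO replicate 1 or without AXL KO replicate 3 the count was 3, with 12.2% and 11.5% of genes called lower in those fits. Without AXL KO replicate 2 it was 8, with 18.8% of genes called lower. At an adjusted p under 0.01 the 3 genes left were Loxl3, Plod1 and P4ha1, while 9.86% of tested genes were called lower. The DESeq2 Wald test called 5 of the 10 lower (16.9% of its genes) and limma-voom 6 (18.7%).

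**Figure D1:**
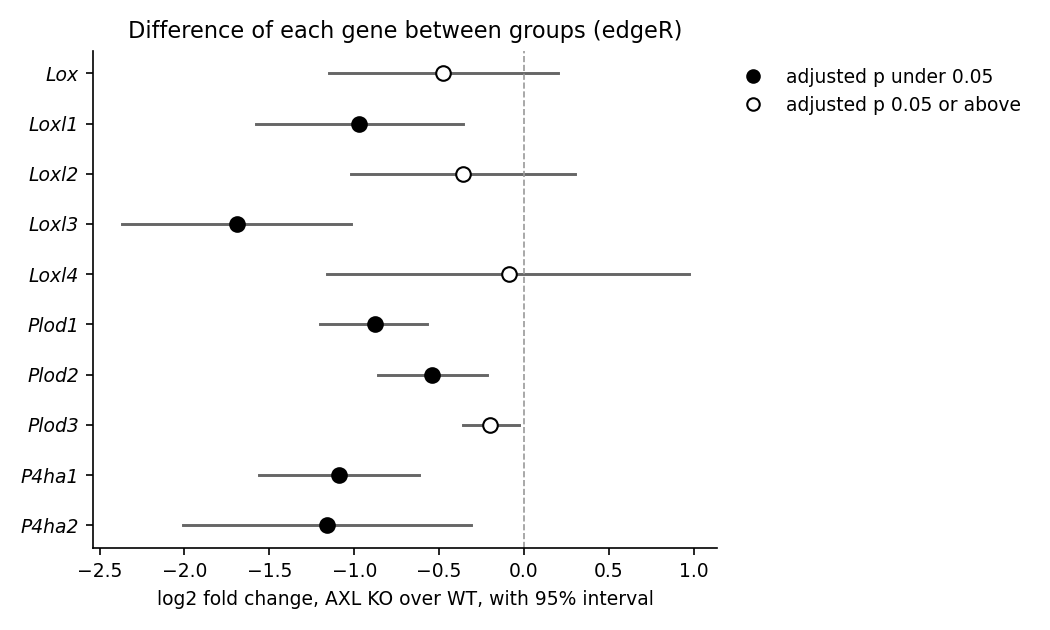
Log2 fold change of each gene, AXL KO over WT (dot), with its 95% interval (line), from the edgeR fit over all genes with 3 libraries per group. Filled dots have an adjusted p under 0.05. All 10 dots lie left of 0, with Loxl3 farthest at -1.69, while the intervals of Lox, Loxl2 and Loxl4 cross 0.

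Among the lysyl oxidases, Loxl3 had the largest estimated decrease. Loxl3 oxidises lysines in fibrous matrix, and the human protein is known to interact with the EMT factor Snail. The gene (ENSMUSG00000000693, GRCm38 chromosome 6, 83034173 to 83052562, plus strand) was measured at 22.7, 53.4 and 22.7 CPM in AXL KO libraries, against 115, 104 and 101 CPM in WT libraries. The groups did not overlap, and AXL KO replicate 2 lay well above the other AXL KO libraries. Its mean was 32.9 ± 17.7 CPM in AXL KO and 107 ± 7.23 CPM in WT (SD, n = 3 each), 3.24-fold lower, which is -1.69 ± 0.30 (SE) on the log2 scale (edgeR adjusted p = 0.00266). It passed in all fits with 1 library left out, between -2.23 (without AXL KO replicate 2) and -1.48. Exons of Loxl3 share 535 bases with Htra2 on the opposite strand, and the log2 fold change of Htra2 was -0.19 ± 0.14 (SE, adjusted p = 0.320). No source used here says whether counting used strand, so reads from the shared bases cannot be assigned to either gene.

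Loxl1, an oxidase that acts mainly on elastic fibres, also fell. The gene (ENSMUSG00000032334, chromosome 9, 58287738 to 58313186, minus strand) had 10.8, 18.8 and 10.5 CPM in AXL KO, against 35.7, 23.5 and 19.4 CPM in WT. The value of AXL KO replicate 2 was only just below that of WT replicate 3, and WT replicate 1 was the highest of all. Loxl1 was 1.96-fold lower, a log2 fold change of -0.97 ± 0.27 (SE), with an adjusted p of 0.0214. The call ended without AXL KO replicate 1 (adjusted p = 0.0755), AXL KO replicate 3 (0.0751) or WT replicate 1 (0.0567), where the log2 fold change was -0.68.

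Lox, the founding member of the family (ENSMUSG00000024529, chromosome 18, 52516067 to 52529867, minus strand), did not pass the test. It had 43.9, 91.2 and 47.6 CPM in AXL KO libraries, against 116, 64.2 and 73.7 CPM in WT libraries. In AXL KO replicate 2 it exceeded WT replicates 2 and 3, so the groups overlapped. Its fitted log2 fold change, -0.48, had a 95% interval of -1.15 to 0.20 (adjusted p = 0.237). Without AXL KO replicate 2 it was -0.89 with an adjusted p of 0.0148, and without WT replicate 1 it was -0.18 with an adjusted p of 0.652.

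Loxl2 and Loxl4 were scarce. Loxl2 (ENSMUSG00000034205, chromosome 14, 69609068 to 69695834, plus strand), which cross-links basement membrane collagen IV, had 3.40, 7.85 and 3.71 CPM in AXL KO and 6.33, 6.78 and 6.17 CPM in WT. The WT libraries lay close together, AXL KO replicates 1 and 3 lay below them, and AXL KO replicate 2 lay above them all. Its fitted log2 fold change, -0.36, had an interval of -1.02 to 0.30 (adjusted p = 0.359). Without AXL KO replicate 2 it was -0.85, with an adjusted p of 0.00385. Loxl4 (ENSMUSG00000025185, chromosome 19, 42593982 to 42612813, minus strand) had 21, 55 and 16 counts in AXL KO and 38, 17 and 36 counts in WT. The groups overlapped, and the interval of its log2 fold change, from -1.16 to 0.97, was the widest of the 10 (adjusted p = 0.892).

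**Figure D2:**
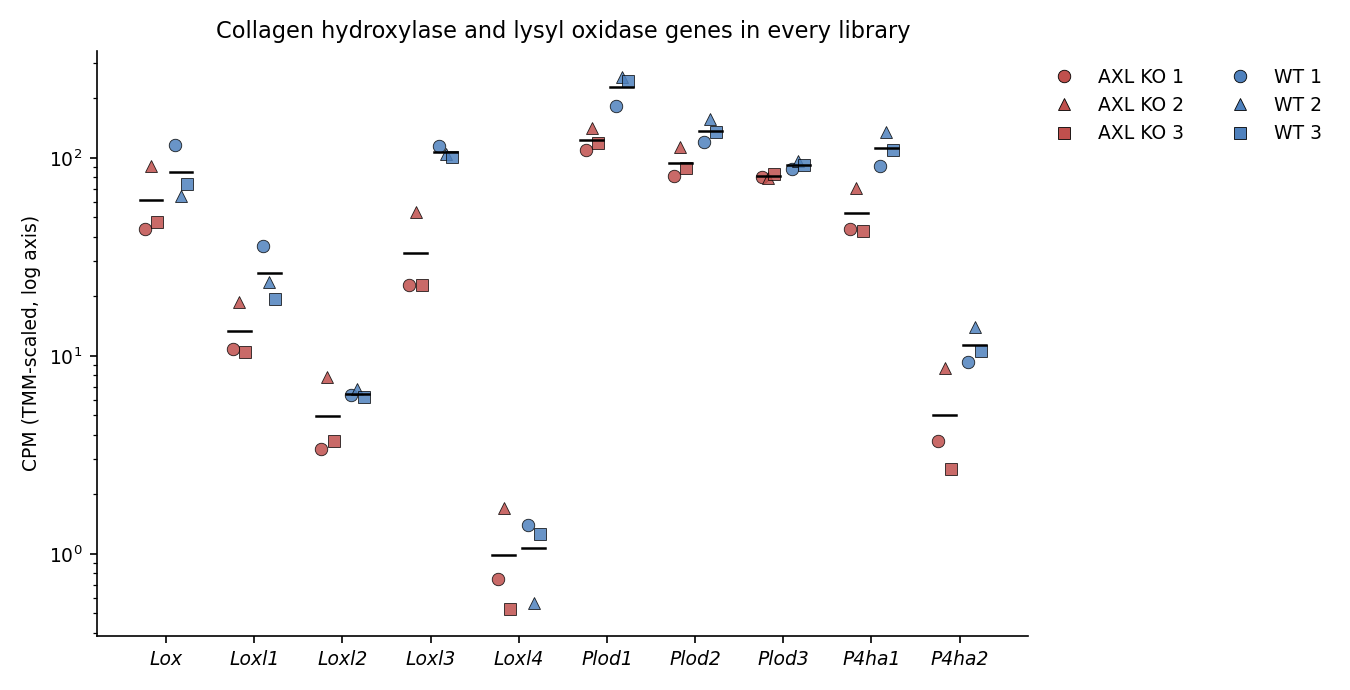
CPM of each gene in each library on a log axis, AXL KO in red left of WT in blue, with symbols for the replicate number and a bar at the mean of 3 libraries. The red triangle, AXL KO replicate 2, is the highest AXL KO point for every gene except Plod3, where it is the lowest at 78.7 CPM.

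As a family the lysyl hydroxylases had the highest summed level, 49.0 to 59.5 CPM per kilobase in AXL KO and 68.7 to 88.2 in WT, and Plod1 and Plod2 fell. Plod1 (ENSMUSG00000019055, chromosome 4, 147909753 to 147936767, minus strand) hydroxylates lysines within the collagen helix. It was measured at 110, 142 and 119 CPM in AXL KO libraries, against 183, 255 and 245 CPM in WT libraries. The groups were well apart. Its log2 fold change was -0.88 ± 0.14 (SE), 1.84-fold lower, with an adjusted p of 0.00158, and it lay between -1.02 and -0.79 over the fits with 1 library left out, with a highest adjusted p of 0.0106. Plod2 (ENSMUSG00000032374, chromosome 9, 92542223 to 92608428, plus strand) hydroxylates the end regions of collagen chains, where cross-links start. It had 81.2, 114 and 88.7 CPM in AXL KO and 120, 157 and 135 CPM in WT. Again AXL KO replicate 2 nearly reached WT replicate 1, and the groups did not overlap. The log2 fold change was -0.54 ± 0.14 (SE, adjusted p = 0.0167), and the call ended without AXL KO replicate 1 (adjusted p = 0.0644), AXL KO replicate 3 (0.0605) or WT replicate 2 (0.0506).

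Plod3, which also adds glucose to hydroxylysine that already carries galactose, had the smallest standard error of the 10. The gene (ENSMUSG00000004846, chromosome 5, 136987019 to 136996648, plus strand) had 79.9, 78.7 and 82.9 CPM in AXL KO and 87.8, 96.6 and 92.3 CPM in WT. The groups did not overlap, with a narrow spread in each, and the log2 fold change was -0.20 ± 0.07 (SE). The adjusted p was 0.0595, just above the threshold. It was 0.0351 with upper-quartile factors, 0.0493 when genes under a log2 CPM of 2 were left out and 0.0325 without WT replicate 1. In 10 of 13 alternatives Plod3 was still not called, with an adjusted p of up to 0.169, reached without AXL KO replicate 1. Exons of Plod3 share 529 bases with Znhit1 on the opposite strand, which had a log2 fold change of -0.09 ± 0.11 (SE, adjusted p = 0.509).

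Both prolyl 4-hydroxylase subunits fell. P4ha1 (ENSMUSG00000019916, chromosome 10, 59323296 to 59373304, plus strand) is the main catalytic subunit in most cells. It had 43.8, 70.8 and 42.9 CPM in AXL KO libraries, against 91.1, 135 and 109 CPM in WT libraries. All AXL KO libraries lay below WT, with AXL KO replicate 2 the nearest. P4ha1 was 2.12-fold lower, with -1.09 ± 0.21 (SE) on the log2 scale and an adjusted p of 0.00394, and it passed with any 1 library left out (highest adjusted p = 0.0181). P4ha2 (ENSMUSG00000018906, chromosome 11, 54100095 to 54131665, plus strand), the alternative subunit, had 3.72, 8.71 and 2.69 CPM in AXL KO and 9.28, 14.0 and 10.6 CPM in WT. Here AXL KO replicate 2 stood just under WT replicate 1. The log2 fold change was -1.16 ± 0.37 (SE, adjusted p = 0.0376). The call of P4ha2 ended with the DESeq2 Wald test (adjusted p = 0.0705) and without AXL KO replicate 1, AXL KO replicate 3, WT replicate 2 or WT replicate 3 (adjusted p from 0.0819 to 0.119), and its log2 fold change was -1.82 without AXL KO replicate 2.

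Divided by exon length, the levels spread over a wide range. In AXL KO libraries Plod1 averaged 18.3 CPM per kilobase, Plod3 17.8, Plod2 17.6, P4ha1 12.8, Lox 12.7, Loxl3 7.15, Loxl1 4.05, Loxl2 0.923, P4ha2 0.808 and Loxl4 0.235. The ranges of neighbours in that order overlapped, except between Loxl1 and Loxl2 and between P4ha2 and Loxl4. In WT libraries the order was Plod1 with 33.7 CPM per kilobase, P4ha1 27.1, Plod2 25.5, Loxl3 23.2, Plod3 20.4, Lox 17.8, Loxl1 7.95, P4ha2 1.81, Loxl2 1.19 and Loxl4 0.255. There the ranges of the first 4 overlapped from neighbour to neighbour, as did those of Plod3 and Lox, and the other neighbours were apart.

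The make-up of the lysyl oxidase family differed between the groups. Lox gave 50.5%, 49.9% and 52.7% of the family's CPM per kilobase in AXL KO libraries, against 39.5%, 30.2% and 34.4% in WT libraries. Loxl3 gave 27.1%, 30.3% and 26.1% in AXL KO, against 40.5%, 50.7% and 49.2% in WT. Lox was thus the largest share in all AXL KO libraries and Loxl3 in all WT libraries, and neither share overlapped between groups. In these shares AXL KO replicate 2 lay with the other AXL KO libraries. Among lysyl hydroxylases the Plod1 share was 33.2% to 35.2% in AXL KO and 39.4% to 44.4% in WT, while that of Plod3 was 29.2% to 36.1% in AXL KO and 24.2% to 28.3% in WT. P4ha1 made up 92.5% to 96.0% of its pair in AXL KO and 93.6% to 94.0% in WT, and these ranges overlapped. Shares were described without a test, since an exact permutation test of 3 against 3 libraries cannot go below p = 0.1 (two-sided).

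**Figure D3:**
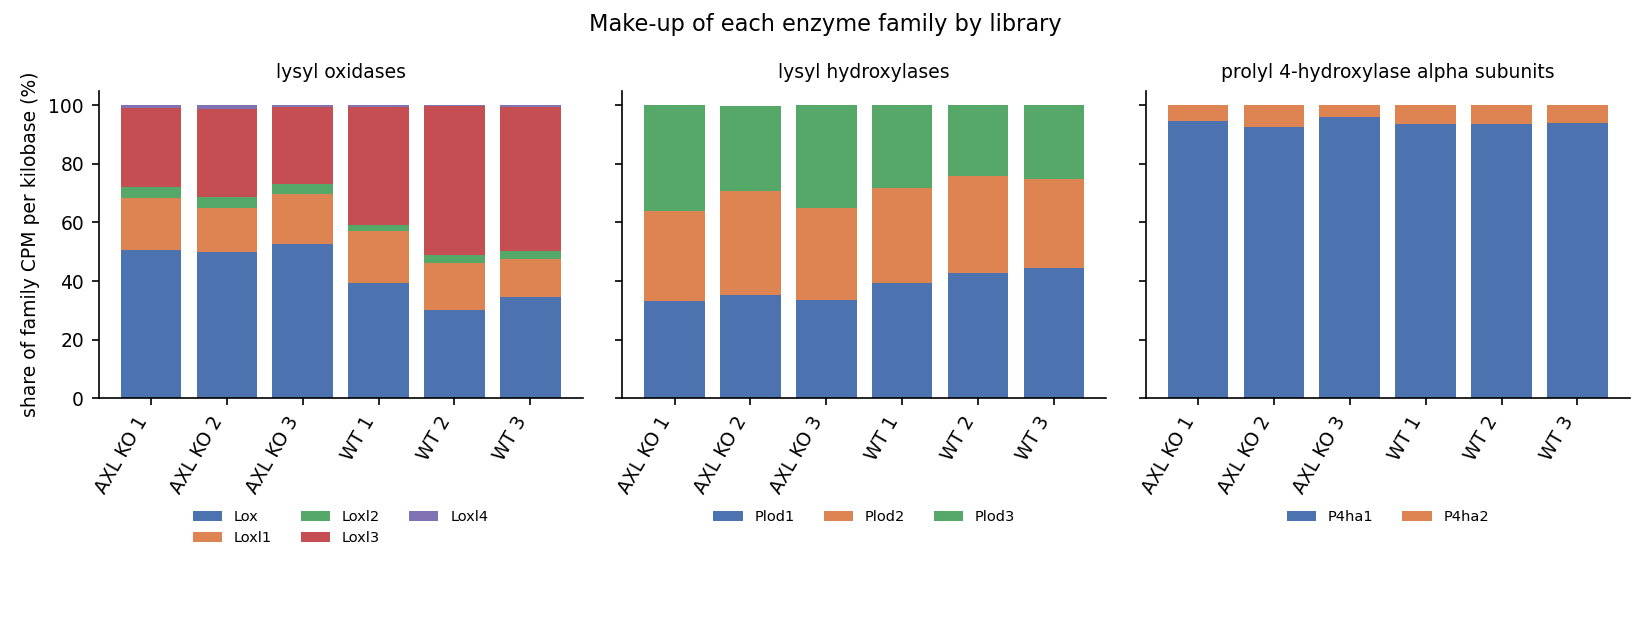
Share of each gene in the summed CPM per kilobase of its family, in percent, for each library, with AXL KO libraries left of WT. Among lysyl oxidases Lox (blue) is the largest part in AXL KO, at 49.9% to 52.7%, and Loxl3 (red) in WT, at 40.5% to 50.7%.

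Both libraries that stood apart were high within their groups for Lox and Loxl1. They went opposite ways for Plod1, Plod2, P4ha1 and P4ha2. For Loxl4 AXL KO replicate 2 was high, while WT replicate 1 (38 counts) was close to WT replicate 3 (36), with WT replicate 2 lower (17). AXL KO replicate 2 exceeded the mean of AXL KO replicates 1 and 3 by a factor of 1.99 for Lox, 1.76 for Loxl1, 2.21 for Loxl2, 2.35 for Loxl3 and 2.68 for Loxl4. For P4ha1 and P4ha2 the factor was 1.63 and 2.72, and for Plod1, Plod2 and Plod3 it was 1.24, 1.34 and 0.967. Summed marker lists moved in that library too, by a factor of 1.85 for myoepithelium, 1.51 for fibroblasts, 1.34 for pericytes and smooth muscle, 1.28 for endothelium, 1.28 for macrophages and 0.871 for luminal epithelium. The myoepithelial sum, 12.3, 24.3 and 14.0 CPM in AXL KO replicates 1 to 3, was mostly Mylk, at 10.4, 20.9 and 11.7 CPM. In the pericyte and smooth muscle sum Abcc9 went the other way, at 105, 67.4 and 79.0 CPM. The summed fibrillar collagens and elastin stood at 1.64 and the other hypoxia targets at 1.2 in AXL KO replicate 2. Ldha was the largest part of the hypoxia sum, at 1230, 1140 and 988 CPM in AXL KO replicates 1 to 3. Single hypoxia targets differed from that sum, with Adm at 12.1, 23.5 and 10.4 CPM and Ndrg1 at 59.9, 85.3 and 44.5 CPM. WT replicate 1 was above the mean of WT replicates 2 and 3 for Lox (1.69), Loxl1 (1.66), Loxl4 (1.54) and Loxl3 (1.12), and close to it for Loxl2 (0.977) and Plod3 (0.93). It was below that mean for Plod1 (0.732), P4ha1 (0.748), P4ha2 (0.752) and Plod2 (0.821). Its marker sums stood at 1.47 for fibroblasts, 1.31 for macrophages, 1.04 for pericytes and smooth muscle, 0.99 for endothelium, 0.94 for luminal epithelium and 0.838 for myoepithelium, with fibrillar collagens and elastin at 1.34 and the hypoxia targets at 0.837. These ratios each rest on 1 library, and the part of cell type content or hypoxia in the differences between groups was not tested.

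**Figure D4:**
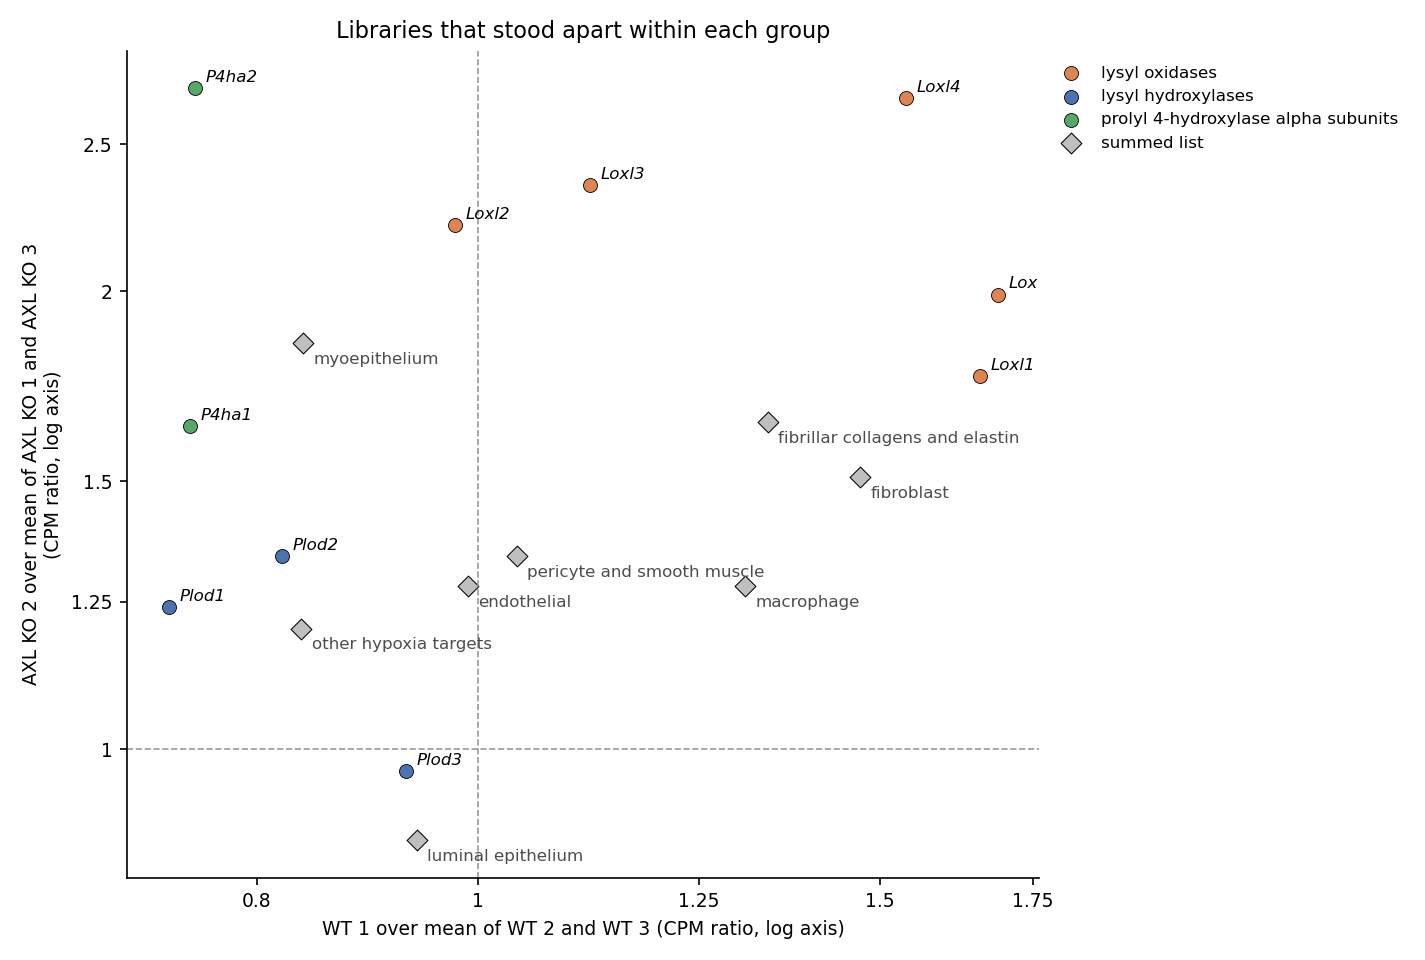
Each dot is 1 gene, with the CPM of WT replicate 1 over the mean of WT replicates 2 and 3 on the horizontal axis and of AXL KO replicate 2 over the mean of AXL KO replicates 1 and 3 on the vertical axis, both on log axes, and diamonds are summed lists. Lox, Loxl1 and Loxl4 lie to the right, as do the fibroblast markers, the fibrillar collagens and elastin and the macrophage markers, and Plod1, Plod2, P4ha1 and P4ha2 lie to the left, as do the hypoxia targets and the myoepithelial markers. The Loxl4 ratios rest on low counts, and the myoepithelial sum is mostly Mylk.

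Set against fibrillar collagens and elastin, a part of their substrates, the summed lysyl oxidases did not overlap between the groups. This rested on Loxl3. Their summed CPM per 1000 CPM of fibrillar collagens and elastin was 49.4, 63.2 and 50.7 in AXL KO libraries, against 71.4, 67.0 and 72.5 in WT libraries, lower in every AXL KO library and described without a test. Without Loxl3, a split chosen after the values were seen, the ratio was 35.6, 43.7 and 37.1 in AXL KO and 41.5, 32 and 36.1 in WT, with overlap. Loxl3 alone stood at 13.7, 19.5 and 13.6 in AXL KO and 29.9, 35.0 and 36.4 in WT. Loxl1 was also lower without overlap, at 6.27 to 6.85 in AXL KO and 6.97 to 9.27 in WT. The margin was narrow, with AXL KO replicate 2 (6.85) only just below WT replicate 3 (6.97). Lox, Loxl2 and Loxl4 overlapped. For lysyl hydroxylases the ratio was 164, 122 and 173 in AXL KO and 101, 171 and 169 in WT. For the prolyl 4-hydroxylase subunits it was 28.8, 29.1 and 27.2 in AXL KO and 26.1, 50.1 and 42.9 in WT. The ratios of both hydroxylase families overlapped between the groups, with WT replicate 1 the lowest library for both. Basement membrane collagens, which are substrates too, were left out of these ratios. They summed to 728 to 1010 CPM in AXL KO and to 1320 to 1650 CPM in WT.

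Among the collagen substrates, the basement membrane chains Col4a1 and Col4a2 fell, while the main fibrillar chains did not pass the test. The share of all tested genes called lower was 18.3%, and 19.1% were called higher. Of 9 fibrillar collagen and elastin genes 3 fell (median log2 fold change -0.53). They were Col11a1 (308 ± 92.7 CPM in AXL KO and 845 ± 84.7 CPM in WT, 2.74-fold lower), Col5a3 (1.54-fold) and Col2a1, which was scarce (5.87-fold). Col1a1, Col1a2 and Col3a1 had log2 fold changes of -0.45, -0.50 and -0.40, with adjusted p from 0.141 to 0.209. Of the 9, 7 fell without AXL KO replicate 2. Of 5 tested basement membrane collagen genes 3 fell, Col4a6 (5.05-fold), Col4a2 (1.91-fold) and Col4a1 (1.88-fold), and Col4a4 rose 1.62-fold, with Col4a3 too low to test.

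More of the other collagen-modifying enzymes and chaperones fell than rose. Of 16 genes 7 fell and 2 rose (median log2 fold change -0.46). Over all tested genes 18.3% were called lower and 19.1% higher. Serpinh1, the collagen chaperone HSP47, had 331 ± 39.4 CPM in AXL KO and 540 ± 21.3 CPM in WT, 1.63-fold lower (adjusted p = 0.000705). Creb3l1, a transcription factor for collagen secretion, was 1.70-fold lower. Crtap, a partner of the prolyl 3-hydroxylase, was 1.5-fold lower, and Colgalt1, which adds galactose to hydroxylysine, was 1.35-fold lower. P4hb, the beta subunit that pairs with P4ha1 and P4ha2, had 1390 ± 176 CPM in AXL KO and 1680 ± 148 CPM in WT, with a log2 fold change of -0.27 and an adjusted p of 0.0847. The genes that rose were Tmem38b, an ion channel of the endoplasmic reticulum, and Mia3, which helps load procollagen for export, with log2 fold changes of 0.55 and 0.35. Without AXL KO replicate 1 or AXL KO replicate 3, 4 genes of the list fell, and without AXL KO replicate 1 or WT replicate 3 only 1 rose.

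Genes that process procollagen and lysyl oxidases, or hold the oxidases on their substrates, were mostly lower. Of 13 tested genes 9 fell and 1 rose (median log2 fold change -0.82), against 18.3% called lower and 19.1% higher over all tested genes. Bmp1, the protease that releases active Lox and trims procollagen, had 22.4, 35.7 and 24.0 CPM in AXL KO libraries, against 88.1, 80.6 and 84.2 CPM in WT libraries, 3.08-fold lower (adjusted p = 0.000152). Fbln5 and Efemp2, fibulins that tether Loxl1 and Lox to elastic fibres, were 4.36-fold and 2.73-fold lower, and the procollagen protease Adamts14 was 3.38-fold lower. Furin, a proprotein convertase, rose 1.32-fold. Fn1 and Postn, matrix proteins that bind Bmp1, had log2 fold changes of -0.52 and -0.46, with adjusted p of 0.163 and 0.178. Tll2 was too low to test.

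Other hypoxia targets fell beside the hydroxylases. Of 15 genes 9 fell and none rose (median log2 fold change -0.82), where 18.3% of all tested genes were called lower and 19.1% higher. Adm, the vasodilator adrenomedullin, was 4.28-fold lower, Ndrg1 3.98-fold, the glycolytic gene Pgk1 1.76-fold and the oxygen sensor Egln3 1.77-fold. Ldha and Pdk1 had log2 fold changes of -0.12 and 0.01, with adjusted p of 0.346 and 0.916. Pgk1 and Ldha have processed pseudogenes that can share reads. Of 10 factors known to act on the enzyme genes 5 fell and none rose, with a median of -0.62. Hif1a and Epas1, the oxygen-regulated HIF subunits, were 1.5-fold and 1.8-fold lower, Tgfb1 1.58-fold lower, Snai1 2.76-fold lower and Ctgf 2.23-fold lower. Without WT replicate 2, 1 factor rose, the HIF partner Arnt.

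**Figure D5:**
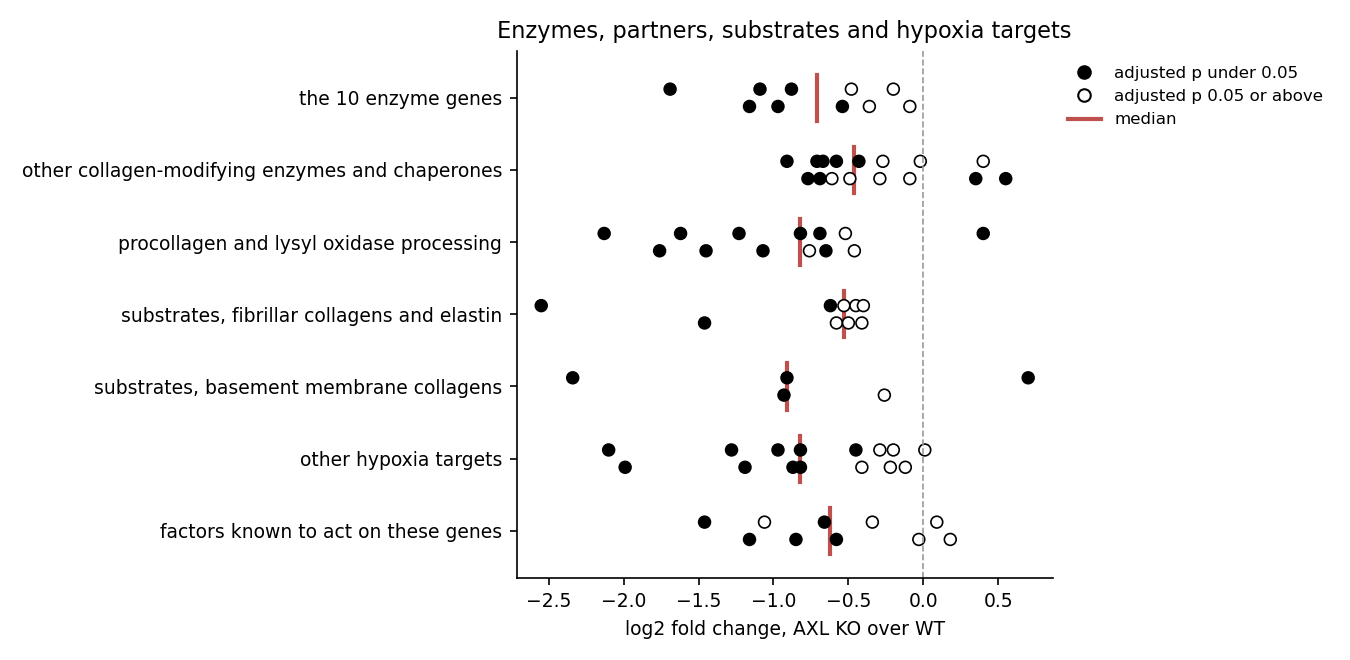
Log2 fold change, AXL KO over WT, of the 10 enzyme genes (top row) and of the tested genes of 6 lists, each dot a gene, filled where the adjusted p was under 0.05, with the list's median in red. Medians lie between -0.91 and -0.46, and the filled dots right of 0 are Tmem38b, Mia3, Furin and Col4a4.

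Markers of the other cells in a graft moved unevenly beside the enzymes. The counts below stand against 18.3% of all tested genes called lower and 19.1% called higher. Of 10 fibroblast markers 1 fell, Col6a3 (1.57-fold). Their median log2 fold change was -0.54, with summed levels of 198, 301 and 201 CPM in AXL KO libraries, against 426, 317 and 262 CPM in WT libraries. Of them 4 fell without AXL KO replicate 2, and without AXL KO replicate 1, AXL KO replicate 3 or WT replicate 2, 0 fell. Of 8 pericyte and smooth muscle markers 6 fell (median -0.98), with sums of 218 to 300 CPM in AXL KO and 365 to 413 CPM in WT. Abcc9 went the other way, at 105, 67.4 and 79.0 CPM in AXL KO and 42.2, 72.5 and 51.2 CPM in WT. Its log2 fold change was 0.6 (edgeR adjusted p = 0.0513). Of 10 endothelial markers 8 fell (median -0.65), with sums of 163 to 221 CPM in AXL KO and 272 to 314 CPM in WT. Of 10 macrophage markers 1 fell and 1 rose (median 0.02), with sums of 412 to 567 CPM in AXL KO and 416 to 558 CPM in WT. Of 9 tested luminal markers 4 fell and 2 rose (median -0.16). Of 4 tested myoepithelial markers 2 fell, Mylk and Cnn1, with log2 fold changes of -1.21 and -1.55. Trp63 and Oxtr went the other way, at 0.33 and 0.28, and were not called, so the median of -0.46 lies between opposed genes. Krt5, Krt14 and Krt17 were too low to test. No marker on these lists was without counts, and the part of each cell type in the enzyme levels was not tested.

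The genes whose log2 CPM over the 6 libraries was most like that of 1 enzyme of each family, the one with the highest mean level per kilobase, differed from family to family. Lox and Loxl3 were level on that measure at 15.2 CPM per kilobase each, and genes most like Loxl3 are not given here. For Lox they were Rpp30, Adamts5 and Nae1 (Pearson r of 0.9886, 0.9866 and 0.985). For Plod1 they were Atp8b2, Rab6a and Entpd5 (0.9984, 0.9965 and 0.9961), and for P4ha1 they were Tmx4, Smtnl2 and Pgm2l1 (0.9984, 0.9978 and 0.9964). Of 11474 genes compared, 64 had r over 0.95 with Lox, 405 with Plod1 and 367 with P4ha1. The values rest on 6 libraries in 2 groups and are a description.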

How the data were processed

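Each library was grouped by its title. The submitters' processing notes name CASAVA 1.8, TopHat2 2.0.10, HTSeq 0.5.3, DESeq2 1.4.5 and the build GRCm38, without settings. The deposited files hold raw counts per gene, with 5 rows that name no gene, which were left out (non-unique alignments were 25.7% to 29.0% of all lines, those in no gene 4.41% to 6.88%, ambiguous ones 0.717% to 1.09%). The authors' table holds signal values (counts over 1 size factor per library), log2 fold changes of WT over AXL KO, turned round here, a test score and p-values.

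Genes were kept with filterByExpr (minimum count 10, minimum total 15), 14850 of 21716 with a count, and tested by quasi-likelihood in edgeR 4.0.16 (R 4.3.3) with TMM factors (0.980 to 1.02) and Benjamini-Hochberg adjustment over all of them at 0.05. SEs were derived from the F statistic. Alternatives were the tests of DESeq2 1.42.0 and limma-voom (3.58.1), upper-quartile or DESeq2 size factors, other filters, a replicate block, each library left out and an adjusted p of 0.01. Steps were tested on simulated data. Positions and exon lengths came from GENCODE M21 (GRCm38). The text names the 10 enzyme genes, up to 4 genes per list by smallest p and the genes most alike. Col1a1, Col1a2, Col3a1, P4hb, Tmem38b, Mia3, Furin, Fn1, Postn, Ldha, Pdk1, Ctgf, Arnt, Abcc9 and Erbb2 were named after their values were seen. The members and lists were chosen with earlier results of these data known.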

Additional observations from a re-analysis of the deposited data

How the results depend on the processing

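Over all alternatives Loxl3, Plod1 and P4ha1 kept their direction and their call, with log2 fold changes from -2.23 to -1.48, -1.02 to -0.79 and -1.36 to -0.93. None of the 10 genes was called higher in any of them. The count of enzyme genes called lower was 3 at an adjusted p under 0.01, where 9.86% of tested genes were called lower. With 1 library left out the count was 3 to 8. Without AXL KO replicate 1, 2 or 3 it was 3, 8 and 3, with 12.2%, 18.8% and 11.5% of genes called lower. Shares of all genes without 1 WT library or with a replicate block are not given here. The log2 fold change of Loxl4 turned round with 1 library left out, between -0.75 and 0.22, and without AXL KO replicate 1 it was 0.07, without AXL KO replicate 3 0.22, without WT replicate 1 0.14 and without WT replicate 3 0.04. Its libraries, of 16 to 55 counts each, overlapped between the groups. Of the other collagen-modifying genes, 4 were called lower and 1 higher at an adjusted p under 0.01, and 4 to 8 lower and 1 to 2 higher with 1 library left out. Fibrillar collagen and elastin genes called lower ranged from 3 to 7 and factors called higher from 0 to 1 with 1 library left out. The cause of these shifts was not tested, and fits with 1 library left out also rest on fewer samples. Counts of cell type markers under the alternatives were added after seeing the data. Macrophage markers called lower were 3 without AXL KO replicate 2 and 0 without AXL KO replicate 3 or WT replicate 1, where 2 were higher. For pericytes 1 was higher without AXL KO replicate 2 or WT replicate 2. Luminal markers called higher were 1 without AXL KO replicate 1 or 3 or WT replicate 1 or 3, and myoepithelial markers called lower were 1 with any library but AXL KO replicate 2 left out. Replicate numbers are shared by both groups but do not pair the libraries, with correlations of -0.0578, -0.125 and 0.0877 between deviations of equally numbered libraries. With the number as a replicate block 6 enzyme genes were called lower and 0 higher, and the block changed no call among the 10.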
